A study of Homo sapiens with 6 samples.

Results

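The genes described here were 26 small nucleolar RNA (snoRNA) host genes, long RNAs whose main known product in many cases is the snoRNA cut out of their introns. They were every gene of the deposited expression table whose symbol was SNHG followed by a number, together with GAS5, ZFAS1, DANCR and EPB41L4A.AS1 (EPB41L4A-AS1 in current annotation), and made up 26 of the 58174 genes in the table. A mean level of at least 0.5 FPKM (fragments per length of transcript and per depth of the library) over all 6 libraries was reached by 24 of them, and these 24 were among the 15069 genes tested. SNHG22 and SNHG18 were below it. After MSI1 knockdown, DANCR and SNHG3 were lower and EPB41L4A.AS1 was higher, and the other 21 tested host genes did not pass the test. The called share was 12.5%, beside 11% of all tested genes and 4.48% of those without a coding annotation. None of these calls held each time 1 library was left out, and 0 host genes passed with plain moderation or without the filter on low values.

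The study depleted MSI1 (Musashi1), an RNA-binding protein of neural stem cells, from KNS42, an established line grown from a glioblastoma of childhood, and read the polyadenylated RNA by sequencing. The siC group was 3 libraries of KNS42 cells transfected with a control siRNA, and the siMSI1 group was 3 libraries of the same line transfected with a pool of siRNAs against MSI1. All cells were transfected with a lipid reagent, grown in the same serum-containing medium and harvested at 72 h. The sources used here do not state whether the replicates were separate cultures, so p-values measure the spread between these libraries, which may be technical, and a single line gives no spread between tumors.

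The libraries held between 13087025 and 18024080 reads on genes. The knockdown left 18.5% of the siC mean of MSI1 itself, with 63.7, 61.9 and 66.9 FPKM across the siC libraries against 12.1, 12.3 and 11.2 FPKM. Of 8 glioma and radial glia markers 7 had a mean of at least 1 FPKM, with S100B listed at 0, and their summed level was 1493 to 1557 FPKM in siC and 1234 to 1335 FPKM in siMSI1. The immune, endothelial and oligodendrocyte markers reached at most 0.509, 0.257 and 0.0335 FPKM in any library, with AIF1 and MOG listed at 0. Of the neuron markers SYT1 was at most 4.32 FPKM and RBFOX3 was listed at 0, and of the epithelial markers KRT18 was the one above 1 FPKM, at up to 24.9 FPKM. VIM alone made up most of the glioma marker sum, and single glioma markers moved both ways. FABP7 was at 34.3 to 38.4 FPKM in siC and fell to 15.1 to 17.8 FPKM (limma adjusted p = 0.00027), while GFAP, the astrocyte filament protein, was at 1.33 to 1.99 FPKM and rose to 4.14 to 5.04 FPKM (limma adjusted p = 0.00090). The part of these marker levels in the results below was not tested.

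snoRNAs guide the chemical modification of ribosomal RNA. Those with a box C/D motif direct methylation of the ribose, those with a box H/ACA motif direct the change of uridine to pseudouridine, and scaRNAs (small Cajal body RNAs) do the same for spliceosomal RNAs. Most human snoRNAs lie in introns, so that a host gene makes its snoRNA by being transcribed and spliced. In many noncoding host genes the spliced exons have little coding capacity and are destroyed by nonsense-mediated decay (NMD), and many hosts begin with a C followed by a run of pyrimidines, the 5′ terminal oligopyrimidine (TOP) start that they share with ribosomal protein genes. Several spliced hosts, among them GAS5, DANCR and SNHG1, are also studied as regulatory RNAs of growth and differentiation in tumors.

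The snoRNAs carried by the 3 host genes that changed are shown because they are the known products of these genes. All 4 were of the H/ACA class. They were read from the GRCh38 (hg38) genome on the + strand, are written 5′ to 3′, and the ACA box is in capitals, 3 bases before the end of each. SNORA26 lies in DANCR at chr4:52713249-52713370, SNORA13 in EPB41L4A-AS1 at chr5:112161485-112161617, and SNORA73A and SNORA73B in SNHG3 at chr1:28507366-28507571 and chr1:28508559-28508762. SNORA73, also called U17, is known for a part in the cleavage of precursor ribosomal RNA.
SNORA26: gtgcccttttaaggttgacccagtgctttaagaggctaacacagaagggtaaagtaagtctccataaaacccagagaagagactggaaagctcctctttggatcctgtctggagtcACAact
SNORA13: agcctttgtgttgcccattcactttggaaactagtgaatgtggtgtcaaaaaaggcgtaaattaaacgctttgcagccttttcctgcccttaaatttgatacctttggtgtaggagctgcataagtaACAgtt
SNORA73A: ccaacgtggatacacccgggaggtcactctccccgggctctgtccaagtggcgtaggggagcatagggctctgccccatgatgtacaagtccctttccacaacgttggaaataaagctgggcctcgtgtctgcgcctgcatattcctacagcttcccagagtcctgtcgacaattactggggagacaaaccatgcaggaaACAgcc
SNORA73B: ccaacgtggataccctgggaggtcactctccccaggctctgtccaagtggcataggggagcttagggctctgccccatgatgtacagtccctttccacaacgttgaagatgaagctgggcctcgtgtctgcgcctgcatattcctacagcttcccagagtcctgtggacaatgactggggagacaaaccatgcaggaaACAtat

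The start sites of hosts are shown next because the TOP start is what many of these genes share with ribosomal protein genes. RefSeq (GRCh38.p14) gave a window for 22 of the 26 host genes. Each sequence below holds 40 bases before the annotated start and 25 bases from it, 5′ to 3′ on the gene's strand. Capitals mark TATAA where it lay between 40 and 15 bases before the start, and a first base of C with the C and T bases that follow it where the run was at least 4 long. SNHG5 (chr6:85678709-85678773, - strand), SNHG19 (chr16:2155334-2155398, - strand) and ZFAS1 (chr20:49278602-49278666, + strand) carried both, SNHG8 (chr4:118278722-118278786, + strand) carried TATAA, and DANCR (chr4:52712354-52712418), SNHG3 (chr1:28505903-28505967) and EPB41L4A-AS1 (chr5:112160486-112160550), all on the + strand, carried neither.
SNHG5: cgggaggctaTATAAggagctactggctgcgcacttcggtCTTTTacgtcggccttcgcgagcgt
SNHG19: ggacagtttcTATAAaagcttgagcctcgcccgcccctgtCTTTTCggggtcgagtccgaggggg
ZFAS1: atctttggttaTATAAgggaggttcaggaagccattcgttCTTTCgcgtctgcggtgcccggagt
SNHG8: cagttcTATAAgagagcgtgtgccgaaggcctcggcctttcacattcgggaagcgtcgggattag
DANCR: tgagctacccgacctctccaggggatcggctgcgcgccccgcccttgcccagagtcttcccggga
SNHG3: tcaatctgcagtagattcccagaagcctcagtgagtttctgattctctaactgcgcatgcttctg
EPB41L4A-AS1: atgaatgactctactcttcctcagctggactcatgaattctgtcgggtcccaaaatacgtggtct

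Levels between genes are compared on the FPKM scale, which is per length. SNHG5 was the highest host gene in the siC libraries at 75.5 ± 3.48 FPKM (SD, n = 3), above all others. SNHG6 (38.7 FPKM) and SNHG19 (37.3 FPKM) came next and their libraries overlapped. SNHG8 (26.1 FPKM) overlapped GAS5 (25.3 FPKM), and SNHG16 (23.8 FPKM) overlapped DANCR (23.2 FPKM). SNHG1 followed at 19.3 FPKM. These 8 genes were all that had a siC mean above 10 FPKM. The next step down was to SNHG7 (8.42 FPKM), SNHG15 (7.67 FPKM) and SNHG3 (7.45 FPKM), neighbors that overlapped, and to SNHG10, ZFAS1, SNHG17 and SNHG9, which ran from 6.44 to 5.91 FPKM with each overlapping the next. SNHG21, SNHG11, SNHG20, EPB41L4A.AS1 and SNHG12 formed a chain of overlapping neighbors from 3.99 down to 2.59 FPKM. SNHG4 stood alone at 1.66 FPKM, and SNHG25 (0.954 FPKM), SNHG14 (0.716 FPKM) and SNHG26 (0.596 FPKM) were the lowest of those tested.

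**Figure D1:**
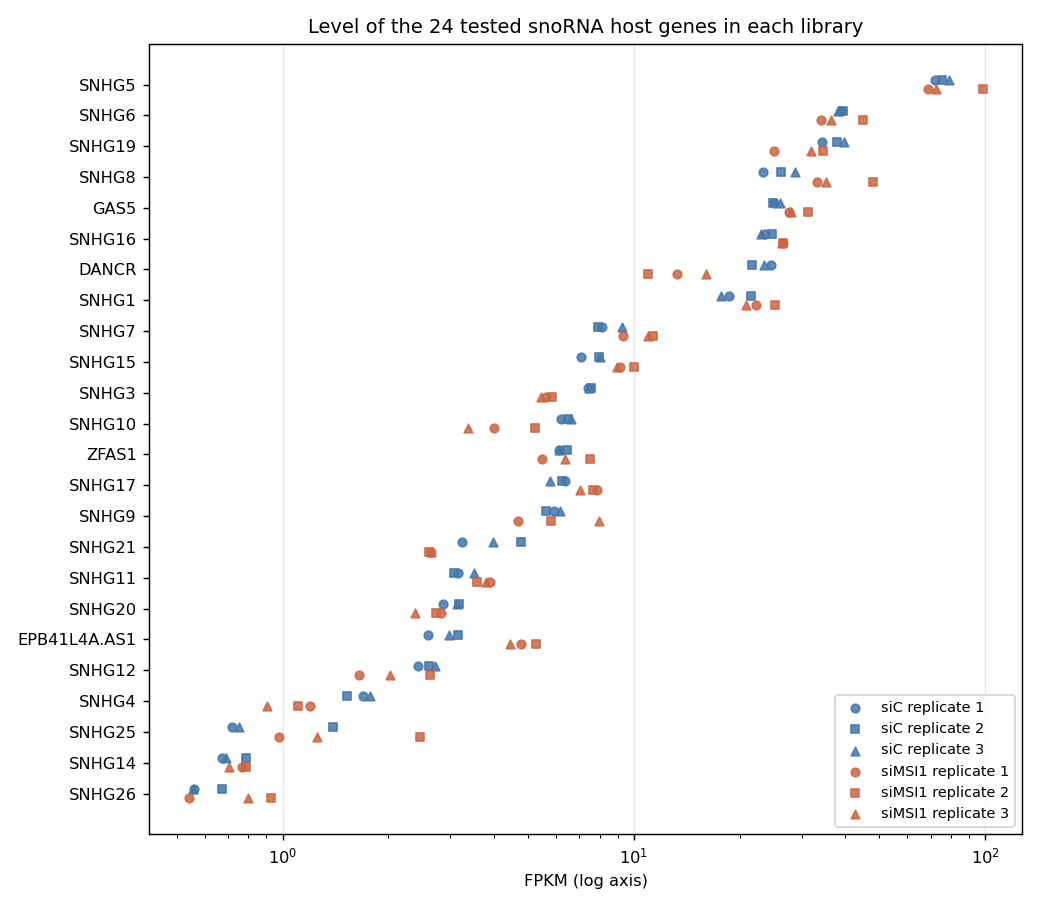
Level of each of the 24 tested snoRNA host genes in each library, in FPKM on a log axis, with the siC libraries in blue, the siMSI1 libraries in red and a marker shape for each replicate number; genes are ordered by their siC mean. The genes span from 0.596 FPKM (SNHG26) to 75.5 FPKM (SNHG5) in the siC mean, and the red points of DANCR and SNHG3 lie below their blue points while those of EPB41L4A.AS1 lie above.

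Together the host genes took a small share of the reads. Reads on all 26 members were 12684, 15975 and 12646 in the siC libraries and 12745, 13411 and 12706 in the siMSI1 libraries. As a share of all gene reads this was 0.0845%, 0.0886% and 0.0875% in siC against 0.0886%, 0.102% and 0.0864% in siMSI1, so the groups overlapped. The summed level of the tested members was 326, 341 and 345 FPKM in siC and 316, 395 and 336 FPKM in siMSI1, and siMSI1 replicate 2 was above the other 5 libraries.

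The knockdown moved 3 of the 24 tested host genes past an adjusted p of 0.01, 2 lower and 1 higher, by limma on log2(FPKM + 0.1) and the Benjamini-Hochberg method over every gene tested. Of all tested genes 11% passed, 5.83% lower and 5.15% higher, close to the members' share of 12.5%. No member has a coding annotation, and among tested genes without one 4.48% passed, a smaller share. With 3 called members this difference was not tested. At an adjusted p of 0.05 there were 9 members, 5 lower and 4 higher. This was reached by 25.1% of all tested genes and by 523 of the 3704 without a coding annotation. The 3 siMSI1 values lay entirely below the 3 siC values in 6 members and entirely above in 8. That is 14 of 24, against 42.8% of all tested genes and 25.8% of those without a coding annotation. The log2 fold changes of the members ran from -0.80 to 0.71 with a median of 0.06, 9 below 0 and 15 above, beside a median of 0.00 over all tested genes and 0.05 over those without a coding annotation. In bulk RNA, fewer cells that hold a transcript and less of it per cell cannot be told apart. The called genes had at least 130 reads in every library.

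**Figure D2:**
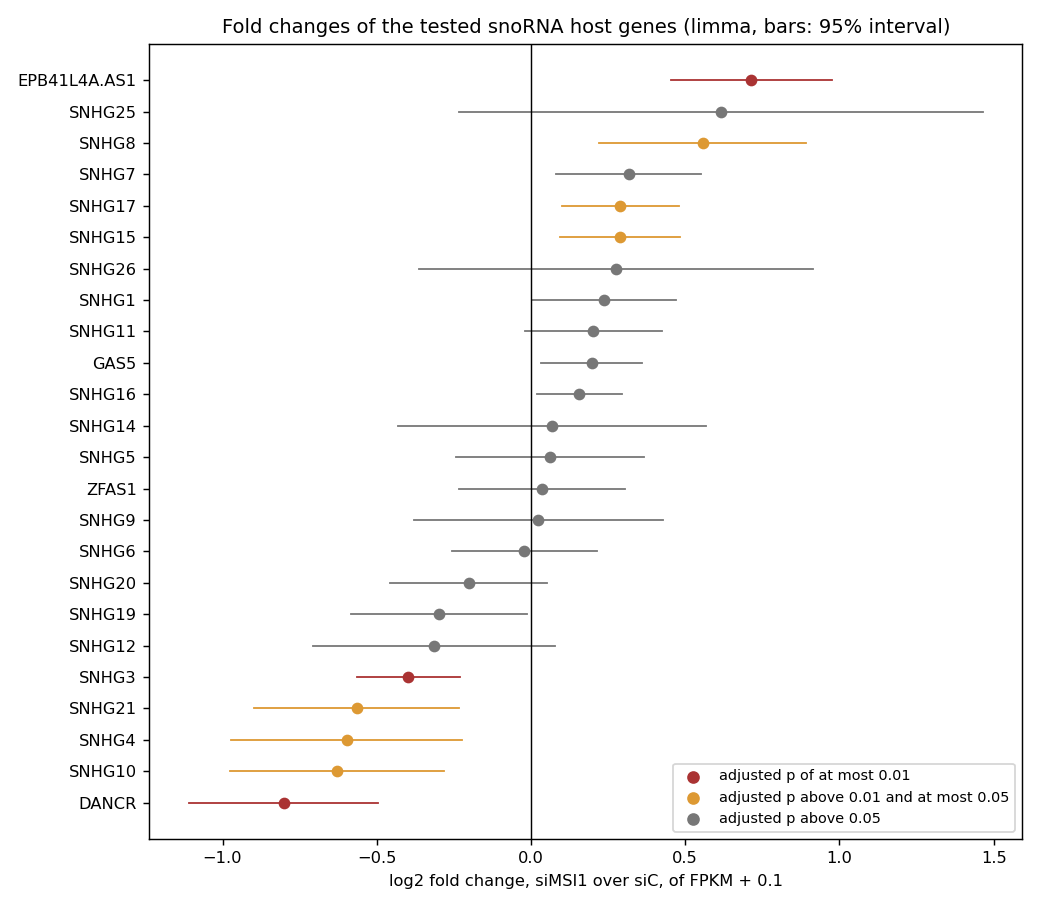
Log2 fold change (siMSI1 over siC, of FPKM + 0.1) of each tested snoRNA host gene on the horizontal axis with its 95% interval from limma as a bar, colored by adjusted p. The 3 red genes are DANCR at -0.80, SNHG3 at -0.40 and EPB41L4A.AS1 at 0.71, and SNHG25 and SNHG26 have the widest intervals.

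All 3 called genes belonged to the class of box H/ACA hosts by the snoRNAs annotated within them. Of the 10 hosts in this class 2 were lower and 1 was higher, beside 11% of all tested genes and 4.48% of those without a coding annotation that passed. Their log2 fold changes covered the whole range of the members, from -0.80 to 0.71 with a median of 0.25, and the groups did not overlap in 9 of the 10, 3 with siMSI1 below and 6 above, beside 42.8% of all tested genes and 25.8% of those without a coding annotation. Membership of the class was read from the annotation after the fit, and the classes were not tested against each other. Each class holds only genes of the symbol rule, which leaves out some known hosts.

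DANCR (ENSG00000226950, chr4:52712325-52723623, + strand), a noncoding RNA first named for holding back differentiation of progenitor cells, had 24.6, 21.7 and 23.4 FPKM in siC and 13.3, 10.9 and 16.1 FPKM in siMSI1. All siMSI1 libraries were below all siC libraries, with the gap between 16.1 and 21.7 FPKM. The mean fell from 23.2 ± 1.42 to 13.4 ± 2.56 FPKM (SD, n = 3 each), to 57.8% of the siC level. The log2 fold change was -0.80 (SE 0.13, 95% interval -1.11 to -0.50), with a limma adjusted p of 0.0047. Behind these values were 841, 899 and 770 reads in siC and 448, 328 and 527 reads in siMSI1. DANCR was the member with the largest fall and the only one above 10 FPKM in siC that passed.

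SNHG3 (ENSG00000242125, chr1:28505980-28510892, + strand) is the host of SNORA73A and SNORA73B and lies on the same strand within RCC1, the gene of a nucleotide exchange factor of the Ran GTPase. The siC libraries gave 7.38, 7.53 and 7.45 FPKM, and the siMSI1 libraries gave 5.61, 5.86 and 5.43 FPKM. The groups were far apart for their spread, 7.45 ± 0.0759 against 5.63 ± 0.214 FPKM (SD, n = 3 each), which leaves 75.6% of the siC level. The log2 fold change was -0.40 (SE 0.072, 95% interval -0.57 to -0.23), with a limma adjusted p of 0.0070. RCC1 was also lower in value, 17.6 against 14.4 FPKM, with a log2 fold change of -0.29 (SE 0.077, adjusted p = 0.031), and did not pass. The sources used here do not say how the counting treated reads that fall in both genes, so the share of either in the other's value is uncertain.

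EPB41L4A.AS1 (ENSG00000224032, chr5:112160526-112164818, + strand), the host of SNORA13, is transcribed against EPB41L4A, a gene of a membrane skeleton protein family. It had 2.59, 3.16 and 2.97 FPKM in siC and 4.79, 5.27 and 4.44 FPKM in siMSI1. Every siMSI1 library was above every siC library, and the mean rose from 2.91 ± 0.287 to 4.83 ± 0.419 FPKM (SD, n = 3 each), to 166% of siC. The log2 fold change was 0.71 (SE 0.11, 95% interval 0.45 to 0.97), with a limma adjusted p of 0.0039. Reads numbered 130, 191 and 143 in siC and 236, 231 and 213 in siMSI1. EPB41L4A, on the opposite strand, differed by 0.16 on the log2 scale (limma adjusted p = 0.54). The library kit kept strand, but whether the counting used it was not stated in the sources used here.

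Leaving out each of the 6 libraries in turn, none of the 3 calls held throughout. Over these 6 refits DANCR had a limma adjusted p from 0.0013 to 0.024 and passed in 2, without siMSI1 replicate 2 and without siMSI1 replicate 3. EPB41L4A.AS1 ran from 0.0050 to 0.019 and also passed in 2, without siC replicate 2 and without siMSI1 replicate 3. SNHG3 ran from 0.013 to 0.037 and passed in 0 of the 6. The direction of all 3 genes was the same in every one of the 15 other fits, with log2 fold changes from -0.94 to -0.66 for DANCR, from -0.43 to -0.35 for SNHG3 and from 0.58 to 0.77 for EPB41L4A.AS1. With voom, a limma method for reads, on the reads recovered from the FPKM values, 5 members passed, against 17.9% of all tested genes. They were the 3 above together with SNHG10, lower, and SNHG8, higher.

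**Figure D3:**
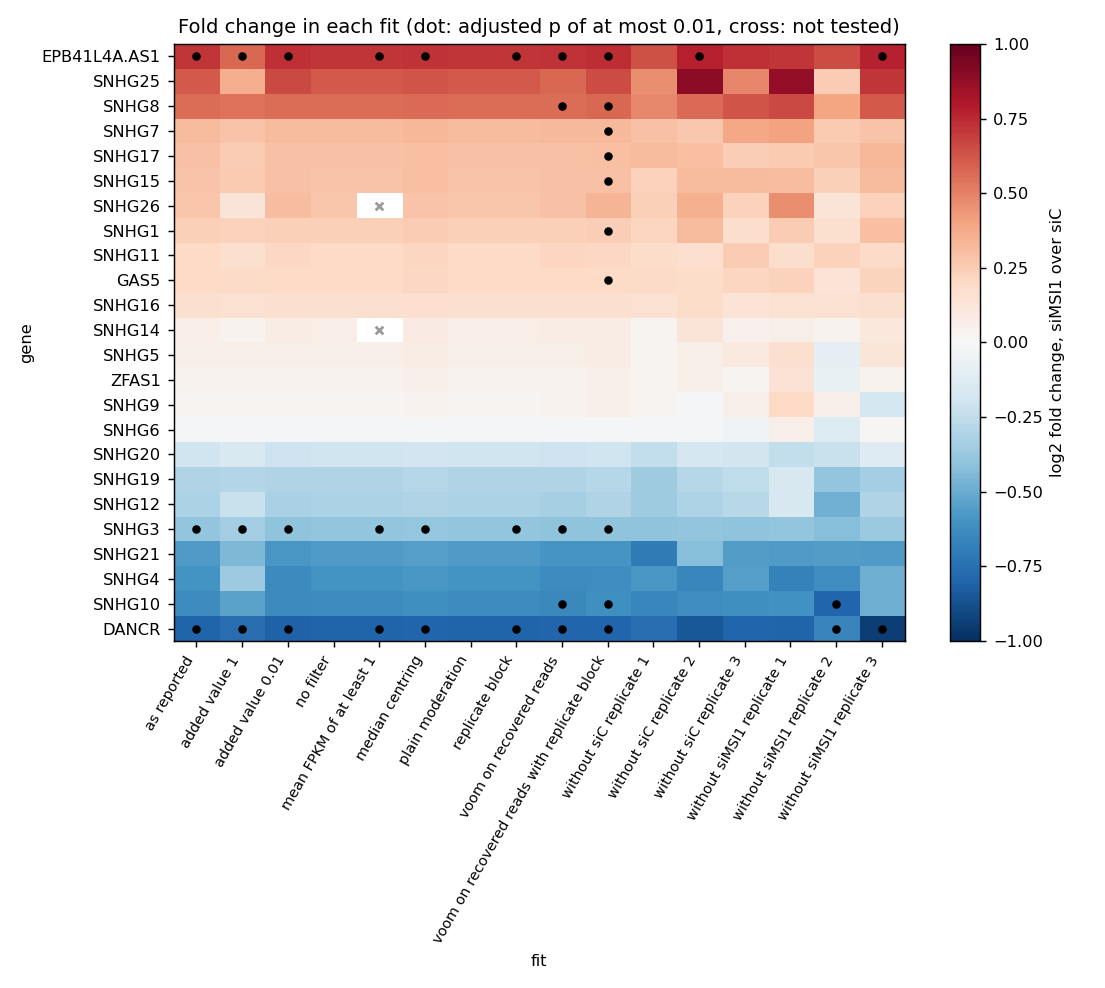
Log2 fold change (color, siMSI1 over siC) of each tested snoRNA host gene (rows) in the fit as reported and in each of the 15 other fits (columns), with a dot where the adjusted p is at most 0.01 and a cross where the gene was not tested. DANCR and EPB41L4A.AS1 carry a dot in 9 of the 15 other fits each and SNHG3 in 7, and leaving out 1 library removes most dots.

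The other H/ACA hosts gave smaller or less even differences. SNHG8 (chr4:118278703-118285316, + strand) had 23.3, 26.2 and 28.8 FPKM in siC and 33.2, 47.9 and 35.2 FPKM in siMSI1. All of its siMSI1 values were above all siC values, with siMSI1 replicate 2 far above the other libraries, and its log2 fold change of 0.56 (SE 0.14) had a limma adjusted p of 0.028. Without siMSI1 replicate 2 the fold change of SNHG8 was 0.39. SNHG15 (7.06 to 7.99 FPKM in siC, 8.97 to 10.0 FPKM in siMSI1) and SNHG17 (5.76 to 6.38 FPKM, then 7.04 to 7.84 FPKM) had log2 fold changes of 0.29 each, with limma adjusted p of 0.041 and 0.037. SNHG17 is the host of the SNORA71 family. SNHG7, which carries SNORA17 copies, ran from 7.90 to 9.25 FPKM in siC and from 9.31 to 11.3 FPKM in siMSI1 (log2 fold change 0.32, limma adjusted p = 0.055). SNHG11 ran from 3.09 to 3.51 FPKM and from 3.58 to 3.88 FPKM (0.20, limma adjusted p = 0.17). In these 5 genes every siMSI1 value was above every siC value, and none passed at 0.01. Of all tested genes 42.8% had groups that did not overlap, in either direction, and 11% passed. SNHG4, host of SNORA74A, was the third with siMSI1 entirely below siC. It ran from 1.52 to 1.77 FPKM in siC and from 0.904 to 1.20 FPKM in siMSI1, on 25 to 53 reads per library (log2 fold change -0.60, SE 0.16, limma adjusted p = 0.032). SNHG9 ran from 5.62 to 6.18 FPKM and from 4.68 to 7.96 FPKM, and the groups overlapped (0.02, 95% interval -0.38 to 0.43).

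Among the members, the hosts of box C/D snoRNAs held the 3 highest levels, and 0 of the 8 tested passed. The shares were 11% of all tested genes and 4.48% of those without a coding annotation. GAS5, described below, is not among the 8. C6orf48, now SNHG32, is a C/D host outside the symbol rule, and it rose by 1.05 on the log2 scale (limma adjusted p = 0.0030). It was found after its values were seen. These counts therefore do not set C/D hosts apart from H/ACA hosts. The log2 fold changes of the 8 lay between -0.30 and 0.27 with a median of 0.06. SNHG5, which carries SNORD50B, had 72.0, 75.5 and 78.9 FPKM in siC and 68.6, 98.4 and 72.2 FPKM in siMSI1. Its groups overlapped and 1 library, siMSI1 replicate 2, was above the rest. The log2 fold change was 0.06 (95% interval -0.24 to 0.37, limma adjusted p = 0.77), and -0.10 without that library. SNHG6, the host of SNORD87, had 38.8, 39.3 and 38.1 FPKM in siC and 34.1, 44.8 and 36.3 FPKM in siMSI1. Both groups had nearly the same mean, with a log2 fold change of -0.02 (95% interval -0.26 to 0.21, limma adjusted p = 0.90). SNHG19, host of SNORD60, had 34.4, 37.8 and 39.6 FPKM and then 25.0, 34.6 and 32.0 FPKM. The overlap there was small, siMSI1 replicate 2 being just above siC replicate 1, and the log2 fold change was -0.30 (95% interval -0.58 to -0.01, limma adjusted p = 0.12).

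SNHG16, which carries the SNORD1 family, had 23.6, 24.7 and 23.0 FPKM in siC and 26.5, 26.6 and 26.4 FPKM in siMSI1. All siMSI1 values were higher, by 0.16 on the log2 scale (SE 0.059, limma adjusted p = 0.093), to 111% of siC. SNHG1, the first known host of this kind and the carrier of SNORD22, had 18.7, 21.5 and 17.7 FPKM and then 22.3, 25.3 and 20.8 FPKM. The groups overlapped by 1 siMSI1 library, with a log2 fold change of 0.24 (SE 0.10, limma adjusted p = 0.12). ZFAS1, host of the SNORD12 family, ran from 6.13 to 6.43 FPKM and from 5.47 to 7.48 FPKM (0.04, limma adjusted p = 0.86). SNHG14 is the imprinted transcript across the SNORD115 and SNORD116 arrays that runs against UBE3A. It ran from 0.672 to 0.785 FPKM and from 0.706 to 0.789 FPKM (0.07, limma adjusted p = 0.85), and SNHG26, host of SNORD93, from 0.556 to 0.673 FPKM and from 0.542 to 0.929 FPKM (0.27, limma adjusted p = 0.51).

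GAS5 is a textbook C/D host whose transcript builds up when translation or growth stops, since its spliced RNA is then spared by NMD. The annotation used here lists no snoRNA within it. It had 25.1, 24.8 and 26.1 FPKM in siC and 27.7, 31.4 and 28.1 FPKM in siMSI1. Every siMSI1 library was above every siC library, by 0.20 on the log2 scale (SE 0.070, 95% interval 0.03 to 0.36), to 115% of siC, with a limma adjusted p of 0.078.

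The hosts of scaRNAs were all lower in value, and 0 of the 3 tested passed. In each the siMSI1 libraries were entirely below the siC libraries, with log2 fold changes from -0.63 to -0.20 and a median of -0.57. Of all tested genes 11% passed and 42.8% had groups that did not overlap. Of those without a coding annotation it was 4.48% and 25.8%. With 3 genes no trait of the class is read from this. SNHG10, host of SCARNA13, ran from 6.21 to 6.61 FPKM in siC and from 3.37 to 5.22 FPKM in siMSI1 (log2 fold change -0.63, SE 0.15, limma adjusted p = 0.020). SNHG21, host of SCARNA15, ran from 3.23 to 4.78 FPKM and from 2.61 to 2.65 FPKM (-0.57, SE 0.14, limma adjusted p = 0.025). SNHG20, host of SCARNA16, ran from 2.87 to 3.17 FPKM and from 2.39 to 2.83 FPKM (-0.20, SE 0.11, limma adjusted p = 0.22). The fourth scaRNA host, SNHG22, was not tested. It reached 0.268 FPKM in siC and 0.510 FPKM in siMSI1 on 3 to 19 reads, so a difference was not detectable at this depth.

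The members with snoRNAs of both classes were SNHG12 and SNHG25. SNHG12 ran from 2.43 to 2.72 FPKM in siC and from 1.65 to 2.62 FPKM in siMSI1 (log2 fold change -0.31, 95% interval -0.71 to 0.08). SNHG25 ran from 0.720 to 1.39 FPKM and from 0.976 to 2.47 FPKM on 3 to 9 reads per library (0.62, 95% interval -0.23 to 1.46). SNHG18, a C/D host, reached 4 reads or 0.137 FPKM in its highest library and was not tested.

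One siMSI1 library stood apart for these genes. siMSI1 replicate 2 was the highest of the 3 siMSI1 libraries in 17 of the 24 tested members (70.8%), beside 34.1% of all tested genes and 42.0% of the ribosomal protein genes. The median member stood 0.19 above its siC mean on the log2 scale in that library, against -0.11 in siMSI1 replicate 1 and 0.07 in siMSI1 replicate 3. DANCR went the other way, with its lowest value in that library. SNHG5 and ZFAS1 turned from above to below 0 without it. What sets that library apart for these genes was not tested.

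Few reads fell on the snoRNAs themselves. The libraries were made from polyadenylated RNA, and most mature snoRNAs carry no poly(A) tail. The annotation placed 131 snoRNAs and 5 scaRNAs on the same strand within 25 of the 26 host genes, 84 of them in SNHG14, and all 136 had a row in the table. In this annotation 56 lay in introns and the rest touched an exon of the host. How reads falling in both genes were counted is not stated in the sources used here, and its part in the low rows was not tested. Of the 136 rows 110 were listed at 0 in every library and 11 exceeded 3 reads in any library. The highest was SNORD104 in SNHG25 with 17, 23 and 42 reads in siC and 38, 42 and 44 reads in siMSI1, more than the 3 to 9 reads of its host. SNORA26 in DANCR had 2, 4 and 4 reads in siC and 0 in each siMSI1 library. It was the 1 gene called among 33 tested overlaps of hosts with other genes (limma adjusted p = 0.0012), beside 11% of all tested genes. SNORA26 met the filter through the siC libraries alone, and its siMSI1 values of 0 have no spread. The call is therefore not read as a change, and on so few reads no fold is given. SNORA26 touches an annotated exon of DANCR, so whether these reads belong to the snoRNA or to its host is uncertain. SNORA13 had 4, 0 and 2 reads and then 0, 1 and 1, and SNORA73B had 1, 10 and 5 and then 6, 9 and 7. At this depth the data do not measure the snoRNA output of the 3 changed hosts. The SNORA71 family in SNHG17 was listed with up to 12 reads, and its near-identical copies make the split of those reads uncertain.

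Nearby genes were read beside the hosts because host genes often share a promoter or overlap another gene. A tested gene on the opposite strand started within 1000 bases of 5 tested hosts, and 0 of the 5 passed, beside 11% of all tested genes. RPS2, a ribosomal protein gene, starts 54 bases from SNHG9 and had a log2 fold change of 0.15 beside 0.02 for SNHG9. SLC3A2, an amino acid transporter subunit 51 bases from SNHG1, had 0.26 (limma adjusted p = 0.032) beside 0.24. ZNFX1, a helicase gene 248 bases from ZFAS1, had 0.29 (limma adjusted p = 0.041) beside 0.04. TRAF7, 293 bases from SNHG19, had -0.01 beside -0.30, and ZBTB37, 800 bases from GAS5, had -0.18 beside 0.20. AC015802.4 and AC005363.1, which start within the same distance of SNHG16 and SNHG9, were not tested. Of the overlapping protein-coding genes, ERVMER34.1 was listed at 0 against DANCR, GLRX5 had -0.02 against -0.63 for SNHG10, and SIL1 had 0.41 (limma adjusted p = 0.015) against -0.60 for SNHG4. PRSS12 had -0.25 (limma adjusted p = 0.058) against 0.56 for SNHG8.

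The start sequences were common among hosts and were not found in the windows of the 3 that changed. A first base of C with at least 3 pyrimidines after it was found in 8 of the 22 members with a window (36.4%), beside 57.6% of 85 ribosomal protein genes and 5.45% of all 35116 windows. TATAA between 40 and 15 bases before the start, on the gene's strand, was found in 6 of the 22 (27.3%), beside 3.94% of all windows. Both were found in 5 (22.7%), SNHG5, SNHG7, SNHG12, SNHG19 and ZFAS1, beside 0.140% of all windows. SNHG4, SNHG18 and SNHG26 had the C run alone. Of the 7 tested members with the run 0 changed, with log2 fold changes from -0.60 to 0.32 and a median of 0.04. Of the 13 without it 2 were lower and 1 was higher, with a median of 0.16. Of all tested genes 11% changed, so with 7 and 13 genes these counts do not tell the starts apart. The split was not tested. GAS5, a known TOP gene, had neither in this window, which says only that the letters are not there. Its window (chr1:173869021-173869085, - strand) lay wholly upstream of the GENCODE position of the gene (chr1:173858559-173868882). Of the 3 that changed, DANCR and SNHG3 also had a RefSeq start that differed from the GENCODE one. For EPB41L4A-AS1 the starts were the same. A call on the first base therefore holds only for the RefSeq start used, and other starts were not tested.

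MSI1 is known to bind RNA at UAG. In the longest annotated transcript of each tested host, on the transcript's own strand, UAG occurred 2.55 to 15.9 times per 1000 bases, with a median of 12.5 over 24 genes, beside a median of 8.47 over 3583 tested genes without a coding annotation. It occurred 14.8 times per 1000 bases in DANCR, 14.5 in SNHG3 and 15.9 in EPB41L4A.AS1, which did not all move in the same direction. These were the highest densities among the 24 hosts. SNHG8 (14.4), SNHG5 (14.4) and SNHG6 (14.3) came next, and none of them passed. Across the 24 hosts Pearson's r of this density with the log2 fold change was -0.23, given as a description, since all points share the same libraries. This r uses the sign of the change, so it does not describe a link between density and the size of a change, which was not tested. The longest annotated transcript need not be the RNA that was measured. It had 6065 bases in DANCR, 2614 in SNHG3 and 3511 in EPB41L4A.AS1. The gene lengths behind the FPKM values were 2285, 4088 and 3344 bases. The densities and r therefore describe annotated transcripts, and which transcripts the cells made was not tested.

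Genes that work with the hosts were counted from fixed lists, each to be read against the 11% of all tested genes that passed. Of 18 proteins that form or assemble snoRNA particles, 0 were lower and 2 were higher (11.1%), a share like that of all genes. FBL (fibrillarin), the methyltransferase of C/D particles, rose from 110 to 160 FPKM, by 0.54 on the log2 scale (limma adjusted p = 0.0040). NOP10, a core protein of H/ACA particles, rose from 178 to 245 FPKM, by 0.46 (limma adjusted p = 0.0050). The list's median log2 fold change was 0.11. Of 15 factors of NMD and the exon junction complex, 2 were lower and 1 was higher (20%). SMG5, an adaptor that recruits decay enzymes to phosphorylated UPF1, fell from 36.3 to 25.9 FPKM (log2 fold change -0.48, limma adjusted p = 0.0020). SMG9, a partner of the kinase SMG1, rose from 7.50 to 10.4 FPKM (0.47, limma adjusted p = 0.0081). The median of that list was -0.04. Of 12 regulators of TOP mRNAs and mTORC1, 0 passed with limma, while 1 passed with voom and 4 had an unadjusted p under 0.05, beside 38.3% of all tested genes.

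Of 81 tested cytosolic ribosomal protein genes 0 were lower and 4 were higher (4.94%), RPL13A (0.53), RPS28 (0.50), RPL30 (0.46) and RPL10 (0.45). Their median was 0.20, with 67 of 81 above 0, and many have processed pseudogene copies that could take or give reads. Protein-coding genes with an annotated snoRNA inside them numbered 215 tested, of which 21 were lower and 14 were higher (16.3%), beside 13.1% of all tested protein-coding genes, with a median of -0.03. The largest changes among them were TRO (1.18), which encodes the adhesion protein trophinin, C6orf48 (1.05) and DNAJC27 (0.93). The 28 that encode ribosomal proteins had a median of 0.20 and the other 187 a median of -0.08. Of 15 tested noncoding hosts outside the member list, 2 were lower and 0 were higher (13.3%), TMEM161B.AS1 (-0.88, limma adjusted p = 0.0030) and LINC02001 (-0.67, limma adjusted p = 0.0071), with a median of -0.24. No list was tested against another.

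**Figure D4:**
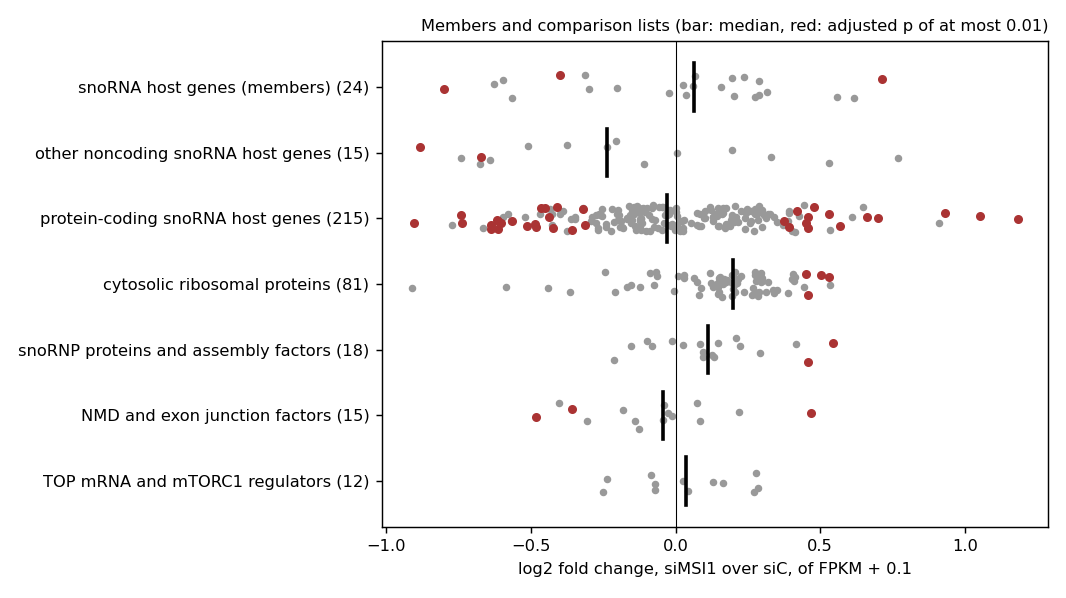
Log2 fold change (siMSI1 over siC, of FPKM + 0.1, horizontal axis) of every tested gene in the member list and in 6 comparison lists, one row per list with its number of genes; a black bar marks the median and red points have an adjusted p of at most 0.01. The members' median is 0.06, that of the ribosomal proteins is 0.20 and that of the noncoding hosts outside the member list is -0.24.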

How the data were processed

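Per the study's methods and the labels' processing notes, the authors clipped reads with cutadapt 1.14, aligned them to GRCh38 with HISAT2 2.1.0 and SAMtools 1.5, counted them on genes with featureCounts 1.5.3 and Ensembl release 89, and deposited 1 table of FPKM values per gene and library. The table also holds their own fold changes, p-values and false discovery rates from edgeR 3.18.1, which were not used. All 6 columns of per-library values belong to the samples.

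The 3 siC and 3 siMSI1 libraries were compared with limma 3.58.1 in R 4.3.3 on log2(FPKM + 0.1) for the 15069 genes with a mean of at least 0.5 FPKM, with trended and robust moderation, no block, Benjamini-Hochberg adjustment and the study's threshold of 0.01. A fold change on this scale understates the change of low genes. FPKM times length gave whole reads for 100% of values (tolerance 0.001), which served voom. The depth behind the FPKM values was 0.977 (siMSI1 replicate 3) to 1.03 (siMSI1 replicate 1) times the reads on genes. The voom fits used the reads on genes without that factor, so they differ from the main fit in scaling too. The fit was tested on simulated data. Genes named were all members, tested neighbors with an opposite start within 1000 bases, and up to 3 called genes of each list with the largest change. RPL10 was added to complete a count, and overlapping genes and single markers were chosen after their values were seen. Positions came from GENCODE 44 (98.7% of identifiers found). Alternatives were other added values, filters, centring, moderation, a replicate block, voom, a threshold of 0.05 and leaving out each library. Members and lists were chosen with earlier results of these data known. Some genes of the comparison are not reported here.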

Additional observations from a re-analysis of the deposited data

How the results depend on the processing

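Of the 382 member and setting combinations 340 kept their direction and side of the threshold, 20 of the others lost the call, 16 gained one and 6 reversed. In 20 of the 24 tested members the direction held under every setting. The reversals all came from leaving out 1 library in genes near 0. SNHG6 ran from -0.14 to 0.06 over these fits (0.06 without siMSI1 replicate 1, 0.01 without siMSI1 replicate 3). SNHG9 ran from -0.18 to 0.20 (-0.01 without siC replicate 2, -0.18 without siMSI1 replicate 3). ZFAS1 ran from -0.077 to 0.15 and SNHG5 from -0.10 to 0.16, both lowest without siMSI1 replicate 2. Depth limits SNHG4, SNHG18, SNHG22, SNHG25 and SNHG26, with at most 53 reads in any library.

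Counts of changed genes moved as follows. Without the filter on low values (29846 genes tested) and with plain moderation, 0 host genes changed (0 lower, 0 higher). Of all tested genes these fits called 2.65% and 5.62%. With voom 5 changed (2 higher), with voom and the replicate block 10 (7 higher), and at a threshold of 0.05 there were 9 (5 lower, 4 higher). The shares of all tested genes called were 17.9%, 32.3% and 25.1%. Leaving out 1 library gave 0 to 2 changed, 0 to 2 lower and 0 to 1 higher: 0 without siC replicate 1, siC replicate 3 or siMSI1 replicate 1, 1 without siC replicate 2, and 2 without siMSI1 replicate 2 or 3. Over all tested genes the same refits called 517 to 1603, beside 1655 with all libraries.

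The lists moved in the same fits, and their counts are to be read against the shares of all tested genes given above. With the replicate block that share was 14.9%, and with median centring it was 10.3%. snoRNP factors changed were 2 as reported, 0 without the filter and with plain moderation, 4 with the replicate block, 4 with voom, 5 with voom and the replicate block, 5 at 0.05, and 0 to 2 with 1 library left out. NMD and exon junction factors went from 3 to 1 without the filter or with median centring, 0 with plain moderation, 5 with voom, 5 with voom and block, 5 at 0.05, and 0 to 3 with 1 library left out. TOP and mTORC1 regulators went from 0 to 1 with the block, 1 with voom, 5 with voom and block and 4 at 0.05. Ribosomal proteins went from 4 to 0 without the filter or with plain moderation, 10 with the block, 23 with voom, 57 with voom and block, 25 at 0.05, and 0 to 9 with 1 library left out. Protein-coding hosts went from 35 to 11 without the filter, 10 with plain moderation, 61 with voom, 105 with voom and block, 66 at 0.05, and 6 to 28 with 1 library left out. Noncoding hosts outside the member list went from 2 to 0 without the filter, 1 with median centring or plain moderation, 6 with voom and block, and 0 to 1 with 1 library left out. The cause was not tested.

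The replicate numbers were not taken as pairs, since the deviations of same-numbered libraries correlated at -0.066, 0.078 and 0.083, none over 0.1. siC replicates 2 and 3 correlated best with their own number, and siC replicate 1 with siMSI1 replicate 3 (0.059). With the replicate block 3 host genes changed, 2 lower and 1 higher, and 2250 of all tested genes passed. With voom the block raised the calls from 2690 to 4870.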

Other observations

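The rule on symbols left out host genes that took an SNHG symbol after the annotation of the deposited table. In GENCODE 44 this holds for 6 genes of the table, of which 4 were tested, 1 lower and 1 higher. C6orf48, now SNHG32, a host of C/D snoRNAs in the major histocompatibility region (chr6:31834608-31839766, + strand), had 7.78, 12.0 and 9.19 FPKM in siC and 18.3, 22.2 and 19.2 FPKM in siMSI1. Every siMSI1 library was above every siC library, and the mean rose to 206% of siC (log2 fold change 1.05, SE 0.15, limma adjusted p = 0.0030). Its change was larger than that of any gene chosen by the symbol rule. The call held in 10 of the 15 other fits, with an adjusted p from 3.19e-10 to 0.015.

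LINC02001, now SNHG30 (chr17:35568050-35574900, + strand), had 21.3, 20.0 and 24.4 FPKM in siC and 11.5, 15.3 and 14.5 FPKM in siMSI1, so the groups did not overlap and 62.8% of the siC mean was left (log2 fold change -0.67, SE 0.12, limma adjusted p = 0.0071). The call held in 6 of the 15 other fits, with an adjusted p of up to 0.027. LRRC75A.AS1, now SNHG29, was higher in level than any member, with 90.4, 92.9 and 92.8 FPKM in siC and 101, 111 and 104 FPKM in siMSI1 (0.19, limma adjusted p = 0.059). AC016708.1, now SNHG31, had a log2 fold change of -0.20 (limma adjusted p = 0.69). C1orf204, now SNHG28, was not tested at 0.287 to 0.454 FPKM in siC and 0.109 to 0.251 FPKM in siMSI1, and AC107393.2, now SNHG27, was listed at 0. These genes were found after their values were seen, so no rate of change is drawn from them.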
